A study of Mus musculus with 8 samples.

Results

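The replication-dependent histone genes of the mouse were followed through oocyte maturation with and without BAF250a. They were taken as all protein-coding genes whose GENCODE M21 symbol starts with Hist1h, Hist2h, Hist3h or Hist4h, a rule that uses names only and no measured value. Of 54838 genes in the count table, 67 met it: 6 encode the linker histone H1, 18 H2A, 18 H2B, 12 H3 and 13 H4. On mm10, 54 of them lie on chromosome 13, 10 on chromosome 3, 2 on chromosome 11 and 1 on chromosome 6. Another 3 genes with such symbols are annotated as pseudogenes and were not counted as members. RNA was sequenced in 8 libraries of 5 to 10 oocytes each, from C57BL/6 mice, with 2 libraries in each of 4 groups. The groups were knockout oocytes in metaphase II (MII, the ovulated and fertilisable stage), control oocytes at MII, knockout oocytes at the germinal vesicle stage (GV, arrested in prophase with an intact nucleus), and control oocytes at GV. The knockout, labelled BAF250aGKO, removes BAF250a, the Arid1a-encoded DNA-binding subunit of BAF chromatin remodelling complexes, with Gdf9-cre. The Gdf9 promoter drives the recombinase in oocytes from early follicle stages, so surrounding somatic cells keep the gene. Controls carry the label wildtype. Nothing in the labels ties replicates to different animals, and p-values therefore cover library-to-library spread, which may be technical.

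The core histones H2A, H2B, H3 and H4 form the nucleosome, and H1 binds the linker DNA between nucleosomes. In dividing cells the genes studied here are transcribed in S phase, and their messages end, without a poly(A) tail, just after a short stem-loop. That stem-loop is bound by SLBP, which directs 3′-end cleavage together with the U7 snRNP and later promotes translation and timely decay. An oocyte replicates no DNA during maturation, and the mouse oocyte accumulates SLBP as it matures and stores histone messages for the S phases that follow fertilisation.

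The stem-loop is the feature that sets these messages apart, so its sequence was read first from the annotated transcripts after the stop codon. It was found in 46 of the 67 genes (68.657%), against 16 of 21834 other genes with a coding transcript (0.073%). A gene without it may have no annotated bases after the stop codon to search, as with Hist1h4k, whose 312 exonic bases are all coding. Only the transcript strand was searched, and a match describes the annotated letters, not a working site. The loops are printed with 5 flanking bases on each side, for genes that the results below turn on, from GENCODE M21 transcripts on mm10. Capitals mark the 16 bases of stem and loop. Hist1h4i (chr13:22040961-22040986, minus strand) and Hist2h4 (chr3:96262934-96262959, minus strand) share the same 16 bases, found in no other member. Hist1h4h (chr13:23531453-23531478, plus strand) and Hist1h4a (chr13:23760795-23760820, minus strand) are also H4 genes. Hist1h2bk (chr13:22036295-22036320, plus strand), Hist3h2ba (chr11:58949344-58949369, plus strand) and Hist1h3g (chr13:23535884-23535909, plus strand) encode H2B, H2B and H3.
Hist1h4i: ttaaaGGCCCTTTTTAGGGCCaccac
Hist2h4: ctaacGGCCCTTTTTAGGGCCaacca
Hist1h4h: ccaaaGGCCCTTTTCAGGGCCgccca
Hist1h4a: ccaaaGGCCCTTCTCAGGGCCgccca
Hist1h2bk: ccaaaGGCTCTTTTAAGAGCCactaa
Hist3h2ba: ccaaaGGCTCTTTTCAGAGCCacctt
Hist1h3g: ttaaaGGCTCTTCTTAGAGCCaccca

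The stem differed by class. All 34 loops of H1, H2A, H2B and H3 genes open with the bases GGCTC, whereas 10 of the 12 loops of H4 genes open with GGCCC and the other 2, of Hist1h4b and Hist1h4j, with GGTCC. The loop began 21 to 58 bases after the stop codon (median 31). In these annotated genes the exon ran on for 3 to 4884 bases past the loop (median 129.5), although a message cleaved in the usual way ends within a few bases of it. Hist1h2bc, the member with most reads, carried no stem-loop in its annotated transcript. That transcript has 2 exons on the plus strand of chromosome 13: the first (chr13:23684199-23684621) ends 9 bases after the stop codon, and the second (chr13:23692176-23692908) follows an intron of 7554 bases and holds no coding sequence.

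The coding sequences resemble each other closely, which bears on which gene a read can be given to. The 13 H4 coding sequences were 85.3% to 100% identical (median 93.9% over 78 pairs), and those of Hist1h4m and Hist1h4n were the same. Their opening 60 bases are printed for 4 genes, again from GENCODE M21 on mm10, with capitals where a base is not the most frequent one among the 13 genes: Hist1h4i (chr13:22041264-22041323, minus strand), Hist1h4m (chr13:21811784-21811843, plus strand), Hist1h4a (chr13:23761098-23761157, minus strand) and Hist2h4 (chr3:96263245-96263304, minus strand).
Hist1h4i: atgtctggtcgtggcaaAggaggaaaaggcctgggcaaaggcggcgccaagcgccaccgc
Hist1h4m: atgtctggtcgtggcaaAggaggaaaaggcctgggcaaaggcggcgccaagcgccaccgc
Hist1h4a: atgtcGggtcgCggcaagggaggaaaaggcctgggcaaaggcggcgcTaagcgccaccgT
Hist2h4: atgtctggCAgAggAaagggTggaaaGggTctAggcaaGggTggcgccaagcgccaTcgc

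Hist1h4i and Hist1h4m are identical over these bases, while Hist2h4 has 11 of the less frequent bases and Hist1h4a 4. Over whole genes, 71.1% of the 50-base words of Hist1h4i, 99.0% of those of Hist2h4 and 59.6% of those of Hist1h4a were found in no other annotated gene, on either strand. For Hist1h2bc the share was 69.4% over the gene but 2.4% within the coding sequence, so its own words lie almost wholly outside the coding part.

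The libraries held between 19587421 and 33289150 reads in genes. The targeted gene followed the labels in every library: Arid1a had 1109 and 576 reads in knockout MII, 42047 and 39148 in control MII, 86 and 312 in knockout GV and 8178 and 10928 in control GV. Oocyte markers summed to between 26700 and 52500 CPM (counts scaled to a library's reads in genes), granulosa and cumulus markers to between 66.2 and 177 CPM and blood and immune markers to between 1.12 and 52.9 CPM. In pools of oocytes, fewer cells carrying a message and less of it per cell cannot be told apart. Values relative to a library's reads do not give amounts per oocyte either. The sources used here do not say whether RNA was selected by its poly(A) tail before sequencing.

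Counted reads of replication-dependent histone genes were a very small part of the reads in genes. Reads without a unique alignment, 7.82% to 13% of a column, were counted for no gene, so the share of histone messages may be larger. All 67 genes together took between 0.00124% and 0.0156% of the reads in genes. A total of 20 genes had no read in any library, which allows each up to 0.0901 to 0.153 CPM of counted reads per library at a floor of 3 reads. Of these, 14 had under 50% of their 50-base words distinct, so that floor sets no limit on the level of their messages. Another 28 genes reached 10 reads over the 8 libraries, while the other 19 had 1 to 9. The median gene had 5 reads in all. After the filter on low counts 21 genes were tested: 3 of H1, 2 of H2A, 7 of H2B, 3 of H3 and 6 of H4. Of the 7 genes with 10 reads or more that the filter removed, some rested on 1 library: all 10 reads of Hist1h3c came from control GV library 2, and 10 of the 12 reads of Hist1h4m from knockout GV library 2. Intervals and floors cover counting error only.

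**Figure D1:**
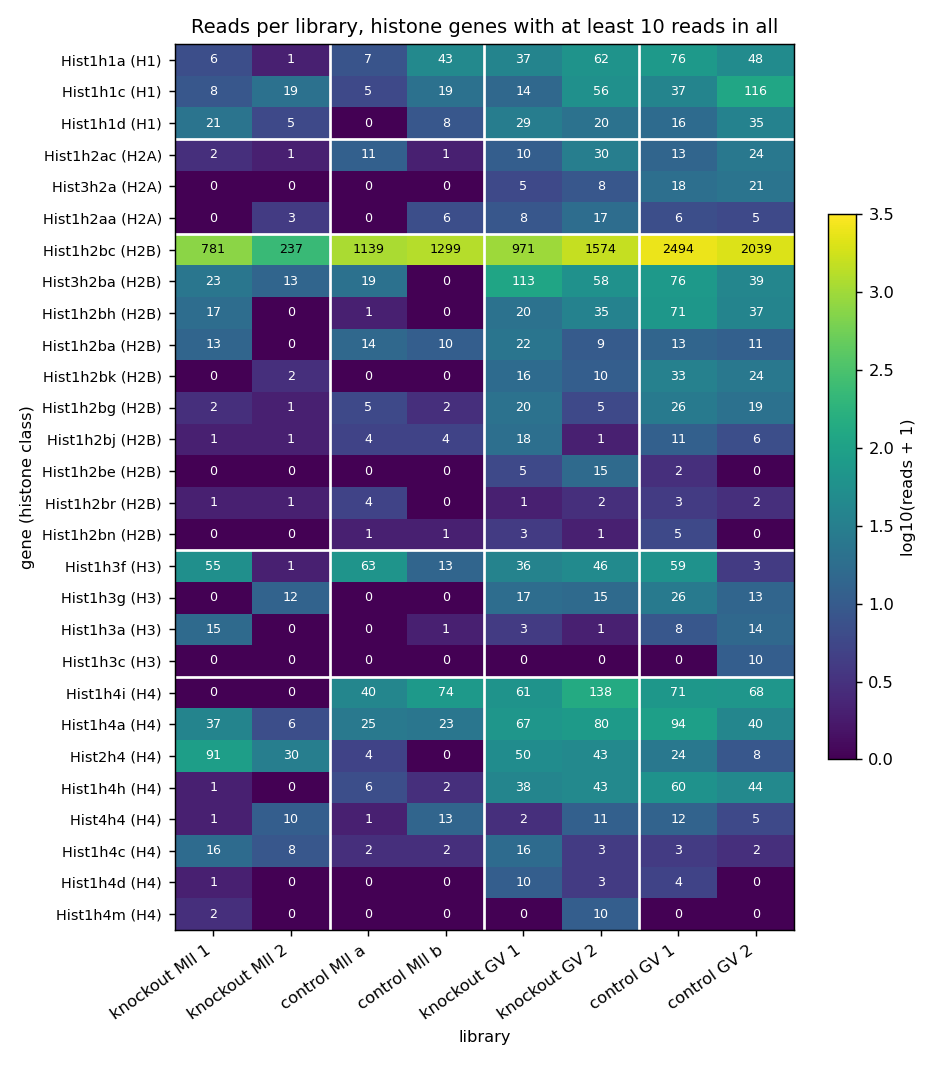
Reads of the 28 replication-dependent histone genes with at least 10 reads in all, in each of the 8 libraries (columns), grouped by histone class (rows). Numbers are reads and colour is log10(reads + 1). Hist1h2bc stands far above the rest in every library, Hist1h4i is at 0 in both knockout MII libraries, and most rows are darker on the left, at MII, than on the right, at GV.

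A single H2B gene dominated. Hist1h2bc, which encodes a canonical H2B, had 781 and 237 reads in knockout MII, 1139 and 1299 in control MII, 971 and 1574 in knockout GV and 2494 and 2039 in control GV. It thus held between 60.4% and 85.4% of the reads of all 67 genes in a library. Per kb of exonic length it averaged 47.6 CPM over the 8 libraries, and the next highest genes were Hist1h4a with 3.75, Hist1h4i with 3.32 and Hist3h2ba with 3.23 CPM per kb.

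Detection went with how distinct a gene's sequence is. Of the 33 genes with at least 50% of their 50-base words found nowhere else, 22 reached 10 reads, against 6 of the 34 genes below that share. Across the 67 genes, Spearman's rho between the share of distinct words and total reads was 0.449, a description over genes that share libraries and ancestry. Genes with at least 100 exonic bases past the loop reached 10 reads in 15 of 24 cases, those with fewer in 7 of 22, and those without an annotated loop in 6 of 21. The median share of distinct words in these groups was 75.3%, 36.9% and 14.2%, so the traits were not separated. Over the 46 genes with a loop, rho between the exonic bases past it and total reads was 0.313. Distinct sequence was not enough for a gene to be seen: Hist1h1b and Hist1h1t (all words distinct), Hist1h1e, Hist1h2ae, Hist1h2bp and Hist1h4f had at least 50% distinct words and no read in any library.

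H2A was the least covered class. All 18 H2A genes overlap an annotated gene on the other strand, as do 3 members of other classes. Of these 21 genes 3 reached 10 reads, all of H2A, against 25 of the 46 genes without such an overlap. The median share of distinct words also differed, at 21.1% with an overlap and 56.0% without. The sources used here do not give the strand setting of the authors' counting, and counting that ignores strand gives reads over an overlap to neither gene. The part of the overlap in the low H2A counts was not tested.

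**Figure D2:**
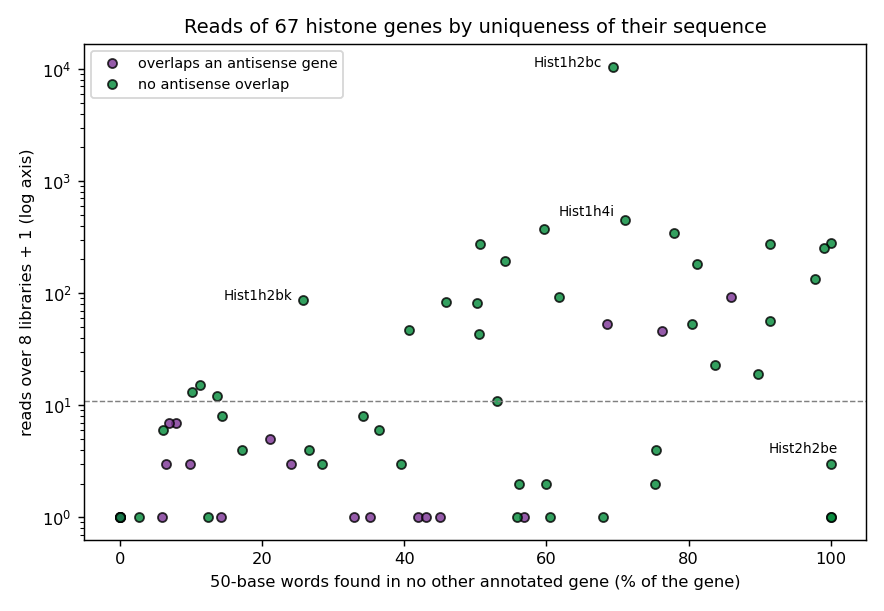
Each point is one of the 67 genes: the share of its 50-base words found in no other annotated gene (x axis, percent) against its reads over the 8 libraries plus 1 (y axis, log axis). Colour shows whether an annotated gene overlaps it on the other strand, and the dashed line marks 10 reads. Few genes below 40% lie above the line, Hist1h2bk with 85 reads being the highest of them, and most purple points lie near the bottom.

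Summed by class, histone reads were lower at MII than at GV in both genotypes. For H4 the summed CPM were 4.69 and 1.87 in knockout MII and 3.0 and 3.83 in control MII, against 10.8 and 15 in knockout GV and 12.9 and 8.53 in control GV. For H1 they were 1.05 and 0.867 in knockout MII and 0.461 and 2.35 in control MII, against 3.53 and 6.16 in knockout GV and 6.17 and 10.2 in control GV. H2A sums were at most 0.277 CPM in knockout MII and 0.423 CPM in control MII, whereas they were at least 1.28 CPM in knockout GV and 2.06 CPM in control GV. In these 3 classes no MII library reached a GV library of the same genotype. The log2 ratio of MII to GV means ranged in controls from -1.18 for H3 to -2.81 for H2A, and in knockouts from -1.03 for H3 to -3.27 for H2A. H3 was the exception to the separation: its sums were 2.46 and 0.471 CPM in control MII, against 4.54 and 2.09 CPM in control GV, which overlap.

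Between genotypes, H2B was the one class whose sum differed at both stages without overlap. The sums were not tested, and with 2 libraries a group a lack of overlap is weak evidence of a difference. The log2 ratio of knockout to control was -1.40 at MII and -0.91 at GV, or -1.37 and -0.66 after TMM scaling. H2B genes summed to 25.2 and 8.84 CPM in knockout MII, against 45.8 and 44.2 in control MII. At GV they summed to 52.5 and 76.4 CPM in knockout, against 131 and 111 in control oocytes. That gap belonged to Hist1h2bc. The remaining 17 H2B genes summed to 1.74 and 0.624 CPM in knockout MII, against 1.96 and 0.572 in control MII, and at GV to 9.74 and 6.07 CPM in knockout, against 11.5 and 7.35 in control oocytes. The 66 genes other than Hist1h2bc averaged 6.98 ± 3.94 CPM in knockout MII, against 7.89 ± 0.595 in control MII, and at GV 30.3 ± 3.23 CPM in knockout, against 33.9 ± 4.61 in control oocytes (SD, n = 2 each). Both pairs of groups overlapped, and at GV the sign of that small difference depended on the scaling (log2 ratio -0.16 on library totals, 0.11 after TMM scaling).

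**Figure D3:**
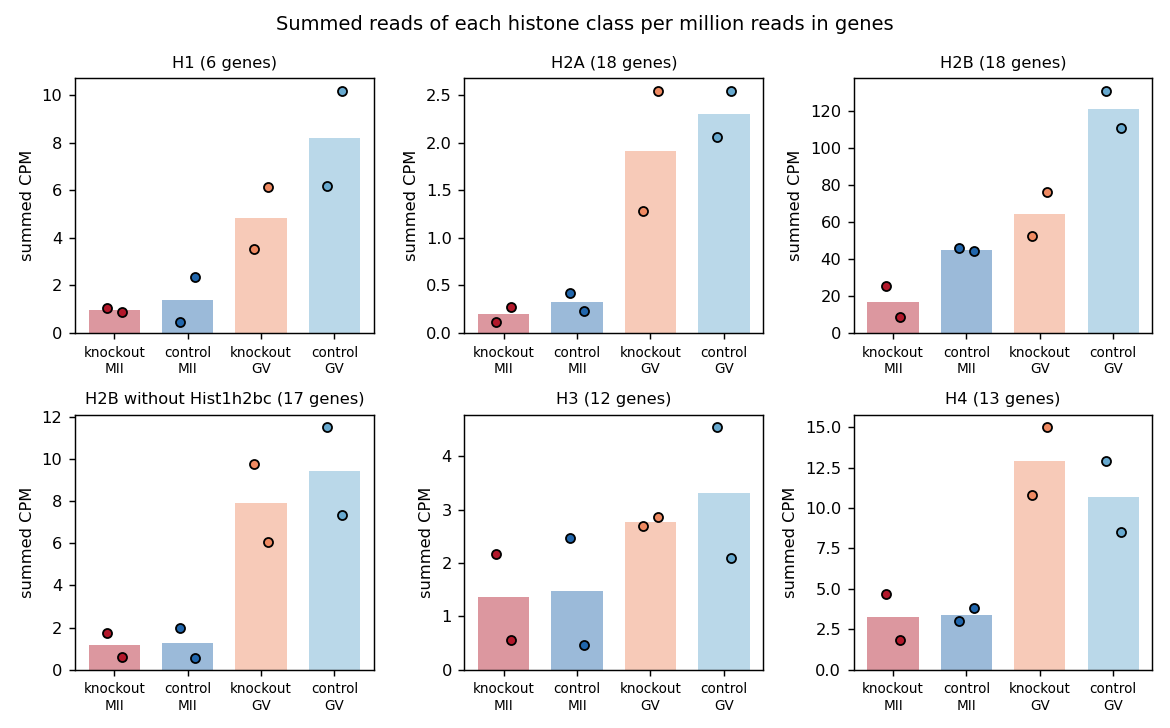
Summed CPM of the genes of each class (bars are means of 2 libraries, points are libraries) in knockout MII, control MII, knockout GV and control GV oocytes, with H2B also shown without Hist1h2bc. Sums are lower at MII than at GV in each panel apart from an overlap in H3, and knockout lies below control at both stages for H2B but overlaps with it once Hist1h2bc is left out.

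At MII, reads of the H4 gene Hist1h4i were missing from knockout oocytes. It had 0 and 0 reads in knockout MII against 40 and 74 in control MII, while at GV it had 61 and 138 reads in knockout and 71 and 68 in control oocytes. Knockout MII was the only group without it, and the GV libraries of both genotypes held more than the control MII libraries in CPM. Its mean level was 0 in knockout MII against 1.99 ± 0.641 CPM in control MII (SD, n = 2 each), at least 19.7-fold lower against a floor of 3 reads per library, with an adjusted p of 0.0104 in edgeR's quasi-likelihood test over all 15572 genes tested. It was the one member of 21 tested to pass the threshold in this comparison, lower, and none was higher. Among all genes tested 3.44% passed lower and 1.7% higher, so 1 of 21 is near the background. The call held with each library left out in turn (adjusted p 0.00872 to 0.0297) and was lost when only the 2 MII groups were fitted (adjusted p = 0.0763).

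Per library total, summed reads of granulosa and cumulus markers and of blood and immune markers were lower in knockout MII than in control MII. Those of markers of dividing somatic cells were not, with 207 and 289 CPM in knockout MII against 202 and 280 CPM in control MII. Of 18 granulosa and cumulus markers, 14 were tested, and Hsd17b1, an enzyme of oestrogen synthesis, fell (2 and 0 reads in knockout MII against 79 and 71 in control MII, adjusted p = 0.0305) while none rose. The median log2 fold change of the 14 was -2.27, against -0.01 over all genes tested, and was the same with genes at 0 set at their bound. Of the 14, 11 had a negative fold change and the others did not. Over all genes tested 3.44% passed lower. Inhba, which encodes an activin subunit, had 0 and 0 reads in knockout MII against 108 and 62 in control MII, and the granulosa transcription factor gene Foxl2 had 0 and 0 against 28 and 10, and neither passed. The list summed to 122 and 103 CPM in knockout MII against 159 and 177 CPM in control MII. Without Cyp19a1 and Nr5a2, left out after their values were seen because they held most of these reads, it summed to 18.6 and 4.85 CPM in knockout MII against 50.1 and 70.2 CPM in control MII, and at GV to 14.6 and 18.6 CPM in knockout against 95.1 and 40.0 CPM in control oocytes. Of 12 blood and immune markers, 4 were tested, 2 of them with a negative fold change and the others without. Cd52, a leukocyte surface antigen, fell, with 0 and 0 reads in knockout MII against 108 and 304 in control MII (adjusted p = 0.0204). That list summed to 3.79 and 3.67 CPM in knockout MII against 6.08 and 52.9 CPM in control MII, and its defining markers Ptprc, Lyz2 and Hbb-bt had no read in any library. The part of these cells in the Hist1h4i result was not tested.

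Hist2h4, the H4 gene that shares the stem-loop of Hist1h4i but lies on chromosome 3, had values in the other direction. It had 91 and 30 reads in knockout MII against 4 and 0 in control MII, and 50 and 43 reads in knockout GV against 24 and 8 in control GV. The genotypes did not overlap at either stage. The log2 fold change of knockout over control was 4.60 ± 1.48 at MII (SE) with an adjusted p of 0.106, and 1.66 ± 1.26 at GV with an adjusted p of 0.766, so neither passed. DESeq2 called it at MII (adjusted p = 0.00816), as did the fit without a filter on low counts (adjusted p = 0.0267). Because of these opposite values the H4 sum at MII was nearly equal between genotypes (log2 ratio -0.06). Without Hist1h4i the other 12 genes summed to 4.69 and 1.87 CPM in knockout MII against 1.46 and 1.34 CPM in control MII.

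The other H4 genes did not pass between genotypes. Hist1h4a had 37 and 6 reads in knockout MII against 25 and 23 in control MII, and 67 and 80 reads in knockout GV against 94 and 40 in control GV. Hist1h4c, singled out after its values were seen, had 16 and 8 reads in knockout MII against 2 and 2 in control MII (log2 fold change 2.37 ± 1.53, adjusted p = 0.407). Hist1h4h had 1 and 0 reads in knockout MII against 6 and 2 in control MII, a ratio of 0.112 with a 95% exact counting interval of 0.00253 to 0.836 (adjusted p = 0.276). Single H4 genes thus lay on both sides of the control values at MII.

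Hist1h2bc averaged 16.1 ± 10.1 CPM in knockout MII against 43.4 ± 0.626 CPM in control MII, and 60 ± 7.09 CPM in knockout GV against 101 ± 21.4 CPM in control GV (SD, n = 2 each). The knockout libraries lay below the controls at both stages without overlap. The log2 fold change was -1.43 ± 0.41 at MII (SE, adjusted p = 0.079) and -0.75 ± 0.41 at GV (adjusted p = 0.592), and neither passed. The MII value depended on single knockout libraries: the log2 fold change was -2.27 without knockout MII library 1 (adjusted p = 0.0177) and -0.82 without knockout MII library 2 (adjusted p = 0.275). DESeq2 (adjusted p = 0.019) and the unfiltered fit (adjusted p = 0.00449) also called it at MII.

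No linker or H3 gene passed between genotypes at MII. Hist1h1a, a linker histone gene, had 6 and 1 reads in knockout MII against 7 and 43 in control MII (log2 fold change -2.88 ± 1.20, adjusted p = 0.194). Hist1h1c had 8 and 19 reads in knockout MII against 5 and 19 in control MII, and Hist1h1d 21 and 5 against 0 and 8. Their genotypes overlapped. Hist1h3f, the H3 gene with most reads, had 55 and 1 reads in knockout MII against 63 and 13 in control MII. Hist1h3g had 0 and 12 reads in knockout MII against none in control MII, and Hist1h3a 15 and 0 against 0 and 1, so in both a single knockout library held the reads. The median log2 fold change of the 21 tested genes at MII was -0.23, against -0.01 over all genes tested, and 5 of the 21 had an unadjusted p below 0.05, as did 3450 of the 15572 genes tested. The H2B genes Hist1h2ba, Hist1h2bg and Hist1h2bj and the H4 genes Hist1h4c and Hist4h4 passed in no comparison of genotypes or stages.

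**Figure D4:**
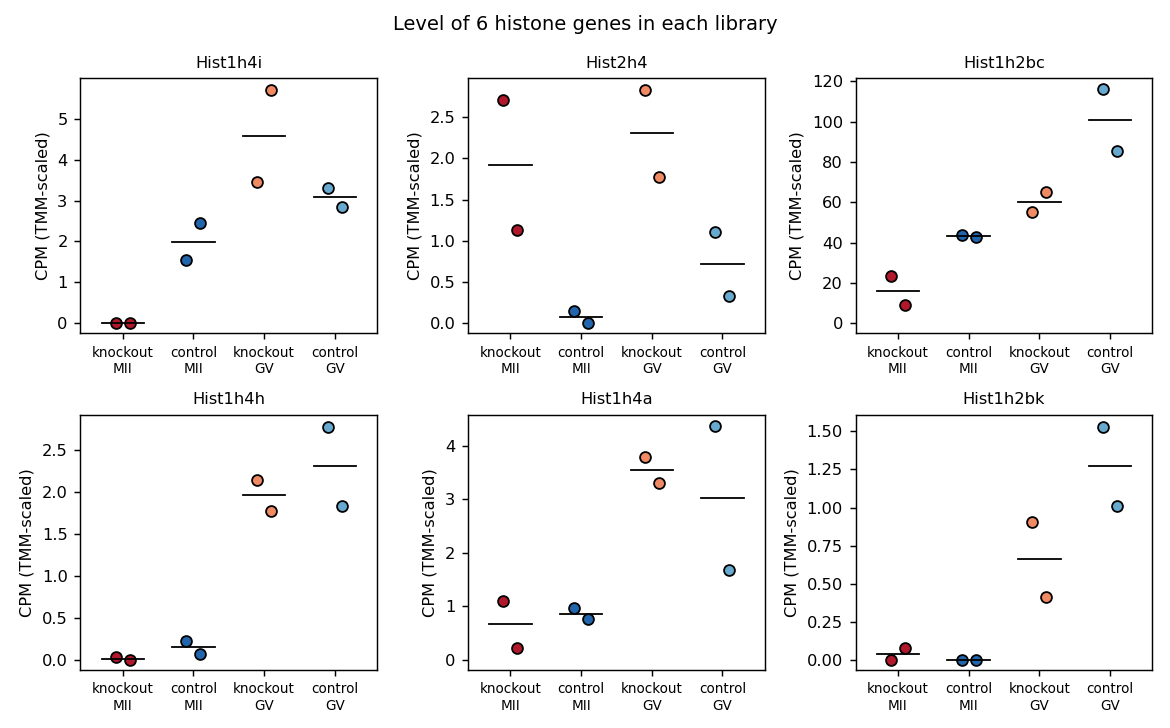
TMM-scaled CPM of 6 histone genes in each library (points) with the group mean (line), in knockout MII, control MII, knockout GV and control GV oocytes. Hist1h4i is at 0 in both knockout MII libraries, Hist2h4 is lowest in control MII, and Hist1h2bc, Hist1h4h, Hist1h4a and Hist1h2bk are lower at MII than at GV in both genotypes.

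At GV no replication-dependent histone gene passed between genotypes, higher or lower, among 21 tested. Over all genes tested, 0.597% passed higher and 0.392% lower. The smallest adjusted p among the 21 was 0.592, for Hist1h2bc, none had an unadjusted p below 0.05 in edgeR against 1687 of all genes tested, and DESeq2 also called none. The median log2 fold change was -0.15, against -0.00 over all genes tested. Hist3h2a, which encodes H2A, had 5 and 8 reads in knockout GV against 18 and 21 in control GV (log2 fold change -1.47 ± 1.44, adjusted p = 0.865). Hist3h2ba, its H2B neighbour on chromosome 11, had 113 and 58 reads in knockout GV against 76 and 39 in control GV (log2 fold change 0.77 ± 1.29, adjusted p = 0.954). With 2 libraries a group and counts of this size, a p above the threshold does not show that the genotypes are alike.

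From GV to MII in control oocytes, 6 of the 21 tested genes fell and none rose. Over all genes tested 27.9% fell and 21.2% rose, so the count that fell, 6 of 21, is close to the background, while the absence of rises was not tested. All 21 fitted changes were negative, with a median log2 fold change of -2.82 against -0.20 over all genes tested, and the median was the same with genes absent at MII set at their bound. The filter keeps a gene with enough reads in 1 group alone, which favours negative signs among genes seen only at GV. Hist3h2a, for example, was tested with no read in any MII library. The signs and the median are therefore a description of the tested genes only. The 6 that fell were 3 H2B genes, 1 H2A, 1 H3 and 1 H4 gene. The count rested on single libraries: leaving out control GV library 1 gave 0 and leaving out control GV library 2 gave 1; it was 2 when control MII library b was left out, and 3 when either knockout GV library was left out.

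Among H2B genes, Hist1h2bc fell by 1.21 ± 0.41 on the log2 scale in controls (SE, adjusted p = 0.0315). Hist1h2bh had 1 and 0 reads in control MII against 71 and 37 in control GV, a ratio of 0.00673 with a 95% exact counting interval of 0.000169 to 0.0383 (adjusted p = 0.0175). Hist1h2bk had none in control MII against 33 and 24 reads in control GV, at least 11.8-fold lower (adjusted p = 0.0137). Both of these genes were thus almost or wholly absent from the counts of control MII, whereas Hist1h2bc remained the member with most reads. Hist3h2ba had 19 and 0 reads in control MII against 76 and 39 in control GV (log2 fold change -2.82 ± 1.40, adjusted p = 0.118).

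Of the H2A genes, Hist3h2a had no read in control MII against 18 and 21 in control GV, at least 8.0-fold lower (adjusted p = 0.0182). Hist1h2ac had 11 and 1 reads in control MII against 13 and 24 in control GV (adjusted p = 0.314), and Hist1h2aa, too low to be tested, 0 and 6 against 6 and 5. At MII no control library held more than 11 reads of any H2A gene.

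Of the H3 genes, Hist1h3g had no read in control MII against 26 and 13 in control GV, at least 8.16-fold lower (adjusted p = 0.0326). Hist1h3f did not pass, with 63 and 13 reads in control MII against 59 and 3 in control GV (log2 fold change -0.01 ± 1.58, adjusted p = 1.00). Its libraries differed widely within both groups.

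Of the H4 genes, Hist1h4h had 6 and 2 reads in control MII against 60 and 44 in control GV (log2 fold change -3.93 ± 1.23, adjusted p = 0.0235). Hist1h4a had 25 and 23 reads in control MII against 94 and 40 in control GV (log2 fold change -1.80 ± 0.98, adjusted p = 0.149). Hist1h4i did not pass either, with 40 and 74 reads in control MII against 71 and 68 in control GV (log2 fold change -0.62 ± 0.80, adjusted p = 0.541). The 3 most abundant linker genes had lower values at MII that did not pass, the nearest being Hist1h1c with 5 and 19 reads in control MII against 37 and 116 in control GV (log2 fold change -2.98 ± 1.18, adjusted p = 0.0577).

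In knockout oocytes 5 of the 21 tested genes fell from GV to MII and none rose. Over all genes tested 29.1% fell and 19.9% rose, so 5 of 21 lies near the background as well. The median log2 fold change was -2.30, or -2.00 with the genes absent at MII set at their bound, against -0.33 over all genes tested, and 20 of 21 fitted changes were negative. As in controls, the filter favours negative signs among genes seen only at GV. The count was 3 without knockout GV library 1, without knockout GV library 2 or without knockout MII library 2. Hist1h4i had 0 and 0 reads in knockout MII against 61 and 138 in knockout GV, at least 45.2-fold lower (adjusted p = 0.000392). Hist1h4h had 1 and 0 reads in knockout MII against 38 and 43 in knockout GV, a ratio of 0.00896 with a 95% exact counting interval of 0.000224 to 0.0513 (adjusted p = 0.00452). These H4 genes and Hist1h2bc (log2 fold change -1.90 ± 0.42, adjusted p = 0.00395) kept their calls with each library left out in turn.

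Hist1h1a, a linker histone gene, had 6 and 1 reads in knockout MII against 37 and 62 in knockout GV (log2 fold change -4.33 ± 1.26, adjusted p = 0.0161). Hist3h2a had no read in knockout MII against 5 and 8 in knockout GV, at least 3.03-fold lower (adjusted p = 0.0374). Both lost the call in some fits with a library left out: Hist1h1a in 3 of 8, and Hist3h2a in 6 of 8. Hist2h4 did not pass, with 91 and 30 reads in knockout MII against 50 and 43 in knockout GV (log2 fold change -0.26 ± 1.22, adjusted p = 0.879). Of 6 markers of dividing somatic cells, some of which oocytes also express, Mcm5, Tk1 and Top2a fell and Rrm2 rose at MII in each genotype. The list summed to 207 and 289 CPM in knockout MII and 202 and 280 CPM in control MII, against 501 and 575 CPM in knockout GV and 786 and 602 CPM in control GV, and Mcm5 held most of that gap. The other 5 genes summed to 194 and 280 CPM in knockout MII and 189 and 250 CPM in control MII, against 167 and 214 CPM in knockout GV and 200 and 224 CPM in control GV, so the groups overlapped. Their part in the fall of histone reads was not tested.

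Whether the knockout effect differed between stages was tested as the knockout change at MII minus that at GV. No member passed, against 0.00642% of all genes tested higher and 0.0771% lower. The smallest adjusted p among the 21 was 0.073, for Hist1h4i, the only member with an unadjusted p below 0.05, against 1787 of all genes tested. DESeq2 called Hist1h4i in this comparison (adjusted p = 0.000353), as did the fit without a filter. For Hist1h2bc the difference was -0.68 ± 0.57 (SE, adjusted p = 0.715) and for Hist2h4 2.94 ± 1.85 (adjusted p = 0.591), and neither passed.

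The machinery that handles histone messages was followed in a list of genes for 3′-end processing, translation and decay, of which 27 were tested. In controls 8 of them rose and 7 fell from GV to MII (median log2 fold change 0.79, against -0.20 over all genes tested), and in knockouts 10 rose and 9 fell (median 0.35, against -0.33). Over all genes tested, 21.2% rose and 27.9% fell in controls, and 19.9% rose and 29.1% fell in knockouts. Slbp, which binds the stem-loop, had 38316 and 56519 reads in knockout MII and 30770 and 34619 in control MII, against 8470 and 10136 in knockout GV and 5065 and 6922 in control GV. It rose by 2.15 ± 0.34 on the log2 scale in controls (SE, adjusted p = 0.00062) and by 1.87 ± 0.34 in knockouts (adjusted p = 0.0013). Like all changes with maturation here, these are relative to a library's reads. They give neither the amount of message per oocyte nor that of the protein. Lsm10, a subunit of the U7 particle that cleaves histone messages, had 248 and 67 reads in knockout MII and 99 and 110 in control MII, against 5128 and 5331 in knockout GV and 6726 and 4818 in control GV. It fell by 6.11 ± 0.54 on the log2 scale in controls (adjusted p = 0.000026) and by 5.68 ± 0.52 in knockouts (adjusted p = 0.000024), so Slbp and Lsm10 moved in opposite directions with maturation. Snrpg, an Sm-ring protein of spliceosomal and U7 particles, rose in both (log2 fold change 1.95 ± 0.33 in controls).

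Between genotypes this list had no call at GV and 2 of 27 at MII, both lower. Over all genes tested, 3.44% passed lower and 1.7% higher at MII, and 0.392% lower and 0.597% higher at GV. Srrt, a partner of the cap-binding complex also known as ARS2, had 64 and 77 reads in knockout MII against 277 and 271 in control MII (log2 fold change -2.03 ± 0.36, adjusted p = 0.0124). Ddx39b, an RNA helicase of splicing and export, had 41 and 31 reads in knockout MII against 117 and 126 in control MII (log2 fold change -1.85 ± 0.35, adjusted p = 0.0163). Slbp did not pass at either stage (log2 fold change 0.49 ± 0.33 at MII, adjusted p = 0.427, and 0.77 ± 0.33 at GV, adjusted p = 0.424).

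Of 18 tested genes for histone gene transcription none passed between genotypes at either stage in edgeR. From GV to MII 11 rose and 3 fell in controls (median log2 fold change 1.11, against -0.20 over all genes tested). In knockouts 6 rose and 5 fell (median 0.63, against -0.33). Over all genes tested, 21.2% rose and 27.9% fell in controls, and 19.9% rose and 29.1% fell in knockouts. Between genotypes 1.7% passed higher and 3.44% lower at MII, and 0.597% higher and 0.392% lower at GV. Nfya, a CCAAT-box factor, had 26643 and 26745 reads in control MII against 10434 and 7249 in control GV (log2 fold change 1.28 ± 0.37, adjusted p = 0.0171). E2f4, an E2F repressor, rose by 1.90 ± 0.26 on the log2 scale in controls (adjusted p = 0.000269). Nfyc, a partner of Nfya, fell by 1.16 ± 0.35 (adjusted p = 0.0192). Among 36 tested histone chaperones none passed between genotypes at either stage. With maturation 13 rose and 9 fell in controls, and 14 rose and 8 fell in knockouts, beside the same shares over all genes tested. Npm2, an oocyte chaperone, fell by 3.74 ± 0.41 in controls (adjusted p = 0.000072), whereas Npm1 rose by 1.44 ± 0.28 (adjusted p = 0.0021) and Rbbp7, which binds H4, by 1.26 ± 0.33 (adjusted p = 0.0104).

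Histone variants listed as replication-independent had far more counted reads than the genes they can replace. Per kb of exonic length, H1 variants summed to 720 to 19000 times the level of the 6 H1 members in the same library, H2A variants to 51.3 to 204 times that of the 18 H2A members, and the H3.3 genes H3f3a and H3f3b to 30.4 to 1120 times that of the 12 H3 members. The genes summed were H1foo, H1f0 and H1fx for H1, and H2afx, H2afz, H2afv, H2afj, H2afy and H2afy2 for H2A. H2afx, which carries a histone stem-loop, averaged 246 CPM per kb in knockout GV and 145 in control GV (TMM-scaled). The unscaled H2A variant sums were 300 and 237 in knockout GV and 243 and 175 in control GV. The median share of distinct words was 98.8% in H1, 27.0% in H2A and 38.0% in H3 members. Annotated lengths of many members also run past the loop. The ratios thus describe counted reads over annotated length, not amounts of message. H1foo, the oocyte linker histone, named for its level after values were seen, had between 123106 and 294101 reads. Of 13 tested variants 3 rose and 4 fell with maturation in each genotype. Over all genes tested, 21.2% rose and 27.9% fell in controls, and 19.9% rose and 29.1% fell in knockouts. H3f3b rose by 1.58 ± 0.35 in controls (adjusted p = 0.0042), and Cenpa, the centromeric H3 variant, by 1.18 ± 0.27 (adjusted p = 0.00481). H2afx, whose transcript also carries a histone stem-loop in the annotation, fell by 3.24 ± 0.40 (adjusted p = 0.000142). Between genotypes no variant passed at GV, against 0.597% of all genes tested higher and 0.392% lower. At MII 1 of 13 passed, lower, against 3.44% of all genes tested. This was H2afj, with 35 and 30 reads in knockout MII against 196 and 155 in control MII (log2 fold change -2.54 ± 0.57, adjusted p = 0.0332).

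**Figure D5:**
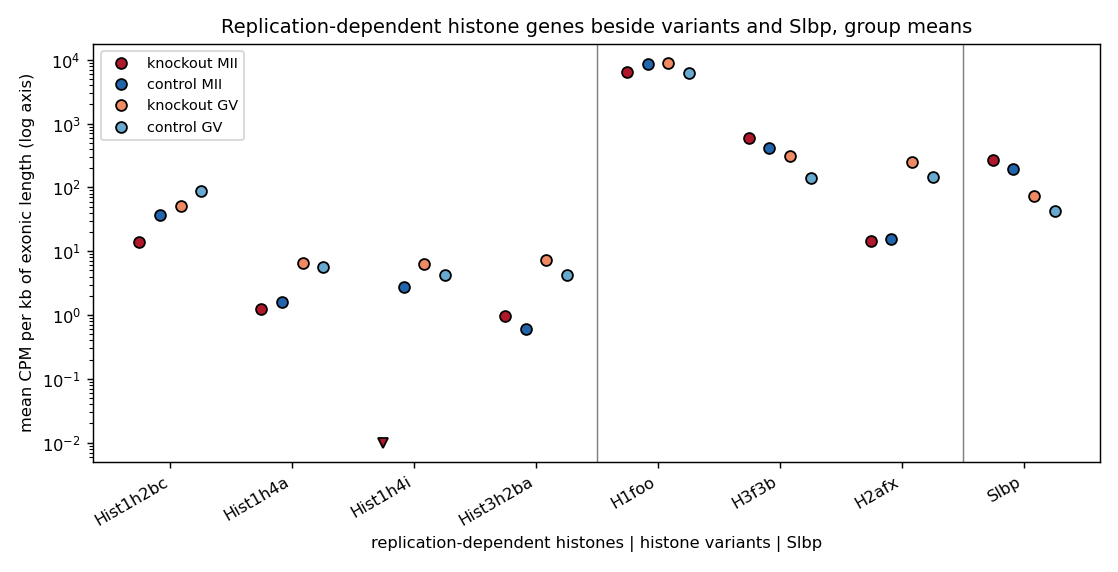
Mean CPM per kb of exonic length (log axis) in knockout MII, control MII, knockout GV and control GV oocytes, for 4 replication-dependent histone genes, 3 histone variants and Slbp. The triangle at the bottom marks Hist1h4i in knockout MII, where no read was counted. Replication-dependent genes lie lowest at MII, H1foo stays highest in all groups, and Slbp is higher at MII than at GV.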

How the data were processed

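The deposited file gives counts of reads per Ensembl gene, made by the authors. Per the submitters' processing notes, Bowtie2, HTSeq, edgeR and mm10 were used; the sources used here give no versions, annotation, strand setting or library kit. The 5 HTSeq summary entries, 22% to 35.13% of a column, were kept out of library sizes. Both control MII columns carry the same header, so they are called libraries a and b. Members and gene lists were chosen with earlier results of these data known.

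Counts were fitted with edgeR 4.0.16 in R 4.3.3 (TMM scaling, filterByExpr, quasi-likelihood F-test, 1 term per group over all 8 libraries), with Benjamini-Hochberg adjustment over 15572 genes and a threshold of 0.05. The common biological coefficient of variation was 0.507 and 4 residual degrees of freedom remained. The script was tested on simulated data. SE is the absolute log2 fold change over the square root of F. CPM of single genes are TMM-scaled; class and marker sums are CPM on the reads in all genes, unscaled. Folds against a group at 0 use a floor of 3 reads per library, and where a group had 1 read the ratio of summed reads over summed library totals is given with its exact conditional interval. Distinct 50-base words, overlaps, stem-loops and sequences come from GENCODE M21.

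Named were members called between genotypes or in the difference, the 12 called members with highest mean CPM in each maturation contrast, the 3 highest of each class, and Hist1h4i; of the lists, genes called between genotypes, Slbp, and the 3 highest called in controls. Alternatives were DESeq2 1.42.0, other scalings and filters, only the groups compared, a replicate block and each library left out.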

Additional observations from a re-analysis of the deposited data

Results flagged for a closer look

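Hist1h2al, annotated as a processed pseudogene and therefore not among the 67 genes, had 9 and 14 reads in knockout GV, 23 in all, and none in control GV or in either MII group. It drew attention because its reads appeared in a gene outside the comparisons and above the level of the control libraries. Against a floor of 3 reads per library it was at least 4.11-fold higher in knockout GV than in control GV. It was too low to be tested.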

How the results depend on the processing

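At MII between genotypes the count of called members, 1 in the main result, was 3 without a filter on low counts, 3 with DESeq2, 0 among genes with a mean of at least 5 CPM, where Hist1h4i was not tested, and 0 with only the groups compared. It ranged from 1 to 2 with a library left out. From GV to MII it was 1 in controls and 1 in knockouts at a mean of at least 5 CPM, and ranged from 0 to 7 and from 3 to 7 with a library left out. In the difference between stages it was 1 without a filter and 1 with DESeq2. No direction reversed in a called result. The labels do not say whether replicate numbers pair samples. Correlations of same-numbered deviations were 0.119 (knockout GV and control GV), -0.02 and 0.0127 over 3 pairs of groups, which cannot settle it. Fitted on only the groups compared, knockout maturation gave 3 called members with a replicate block and 6 without it (5 over all groups), and genotypes at GV gave 0 with and without it. Over all genes tested, the block raised the calls between genotypes at GV from 702 to 1522 of 13992. In knockout maturation it lowered them from 7249 to 6294 of 13750. Library totals in place of TMM scaling moved the median of all genes between genotypes at GV from -0.00 to -0.27 on the log2 scale and changed no count of called members. Most members held too few reads for any test.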
